A study of Mus musculus with 24 samples.

Results

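The small heat shock proteins of muscle were followed here through 7 genes, Hspb1, Hspb2, Hspb3, Hspb6, Hspb7, Hspb8 and Cryab, taken by symbol from a table of 47643 genes. All 7 were present, and all 7 passed the filter on low counts that left 10159 genes for testing. The samples were plantaris muscles, a fast hindlimb muscle, of wild-type C57BL/6 mice, 11 from animals kept in normal air (the air group) and 13 from animals exposed to tobacco smoke for 16 weeks (the smoke group). The sex and age of the mice, and whether each sample was a separate animal, were not given in the labels, so p-values measure the spread between these samples. The series title concerns chronic activity of the aryl hydrocarbon receptor and muscle impairment by smoking, and the comparison made here asks whether transcripts of this chaperone family differed after smoke.

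Small heat shock proteins share an alpha-crystallin domain, assemble into oligomers and hold unfolding proteins without using ATP, so that other chaperones can refold them or pass them on for breakdown. In muscle they bind actin, desmin, titin and filamin at the Z-disc, and mutations in several of them cause myopathy or motor neuropathy. The transcription factor HSF1 raises some of them, such as Hspb1 and Cryab, through heat shock elements, while others are expressed with muscle identity and respond little to heat.

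The QuantSeq kit used reads each transcript only at its 3′ end, so counts do not grow with transcript length. Total counts ranged from 2515697 to 4528845 per sample, and each member had at least 62 counts in every sample. Levels are given as CPM, counts scaled for library size with the TMM method. Skeletal fibre markers (Acta1, Ckm, Myh4, Tnnt3, Pvalb and Mb) summed to 128050 to 198607 CPM in air and 133060 to 166877 CPM in smoke, while the cardiac markers Myh6, Nppa and Tnni3 summed to at most 4.46 CPM in any sample. Of the 6 fibre markers 1 was called at an adjusted p under 0.05, against 1.92% of all genes tested. This was Mb (myoglobin), which fell from 7163 ± 863 to 5594 ± 532 CPM (SD, log2 change −0.36, edgeR adjusted p = 0.00107). It overlaps Gm49540 on the opposite strand at its 3′ end, which leaves its counts uncertain. All smoke samples stood before all air samples in the sample sheet numbers of the file header, so sheet position and exposure cannot be told apart.

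The stretch of DNA before a gene's start is shown for 3 members because HSF1 acts through such sequences. They are Hspb7, the member called under smoke, and Hspb1 and Hspb3, whose windows hold matches to a heat shock repeat. Each is the 250 bases before the start site in RefSeq (build GRCm38.p6), written 5′ to 3′ in the direction of the gene. Capitals mark GAANNTTC, an inverted pair of heat shock repeats that reads alike on both strands.
Hspb1 (chr5:135887669-135887918, plus strand): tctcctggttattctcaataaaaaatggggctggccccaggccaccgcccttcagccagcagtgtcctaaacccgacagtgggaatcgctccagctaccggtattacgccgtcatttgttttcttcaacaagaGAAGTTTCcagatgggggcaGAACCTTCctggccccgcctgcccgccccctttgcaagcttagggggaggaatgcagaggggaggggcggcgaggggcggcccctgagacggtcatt
Hspb3 (chr13:113663677-113663926, minus strand): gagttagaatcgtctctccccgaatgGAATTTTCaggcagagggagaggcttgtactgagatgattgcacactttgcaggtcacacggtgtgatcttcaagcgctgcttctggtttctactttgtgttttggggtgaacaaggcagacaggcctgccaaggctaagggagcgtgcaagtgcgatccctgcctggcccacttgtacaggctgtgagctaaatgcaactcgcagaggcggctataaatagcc
Hspb7 (chr4:141420529-141420778, plus strand): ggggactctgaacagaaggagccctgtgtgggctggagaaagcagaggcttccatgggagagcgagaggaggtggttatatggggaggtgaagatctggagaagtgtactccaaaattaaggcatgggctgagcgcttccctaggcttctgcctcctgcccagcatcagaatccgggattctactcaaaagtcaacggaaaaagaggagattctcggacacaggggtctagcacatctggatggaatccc

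The Hspb1 window held 2 matches, GAAGTTTC beginning 117 bases and GAACCTTC beginning 97 bases before the start. The Hspb3 window held 1, GAATTTTC beginning 224 bases before the start, and a TATAAA match beginning 11 bases before it. The Hspb7 window held none. Hspb8 (1 window) and the first of 2 Hspb6 windows also held none. The second Hspb6 window held GAAGTTTC beginning 120 bases before its start, and a TATAAA match beginning 29 bases before it. The opposite arrangement, TTCNNGAA, was in none of the 6 windows. Of 32851 windows of this length in the genome, 6.69% held GAANNTTC, 7.17% TTCNNGAA, 12.8% at least 1 of these and 12.4% TATAAA on either strand. A match describes the letters of the window and no binding was measured here. Hspb2 and Cryab were not in the promoter table.

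The members spanned a wide range of levels. Cryab, the alpha-B crystallin that chaperones desmin and titin, was the most abundant, at 999 ± 127 CPM (SD, n = 11) in air. Hspb8, which works with the co-chaperone BAG3 in selective autophagy, stood at 388 ± 38.3 CPM (SD, n = 11), and Hspb6, a substrate of protein kinase A, at 355 ± 46.9 CPM (SD, n = 11). Hspb7, a cardiovascular and muscle form that binds filamin C, stood at 158 ± 25.6 CPM and Hspb1, the stress-inducible Hsp25 of the mouse, at 150 ± 28.1 CPM (SD, n = 11 for each). Hspb2, first described as a partner of the myotonic dystrophy kinase, stood at 51.8 ± 3.77 CPM, and Hspb3, which forms a complex with Hspb2, at 25.2 ± 4.12 CPM (SD, n = 11 for each).

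Cryab exceeded Hspb8, Hspb6 exceeded Hspb1, Hspb7 exceeded Hspb2 and Hspb2 exceeded Hspb3 in all 24 samples. The other neighbours in this order changed places between samples. Hspb8 exceeded Hspb6 in 7 of 11 air and 10 of 13 smoke samples. Hspb1 exceeded Hspb7 in 5 of 11 air samples and in 11 of 13 smoke samples. The ratio of Hspb2 to Hspb3, whose proteins form 1 complex, was 2.11 ± 0.376 (SD) in air and 1.89 ± 0.399 (SD) in smoke, and ranged from 1.01 to 2.84 over all samples. The 7 genes together made 2127 ± 146 CPM (SD) in air and 1866 ± 153 CPM (SD) in smoke. Cryab took 46.8 ± 3.24% of this sum in air and 45.8 ± 3.15% in smoke (SD), and Hspb7 7.41 ± 0.964% in air and 5.65 ± 1.16% in smoke (SD). The most stable member in air was Hspb2, with a coefficient of variation of 7.26%, and the most variable under smoke was Hspb7, at 27.8%.

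**Figure D1:**
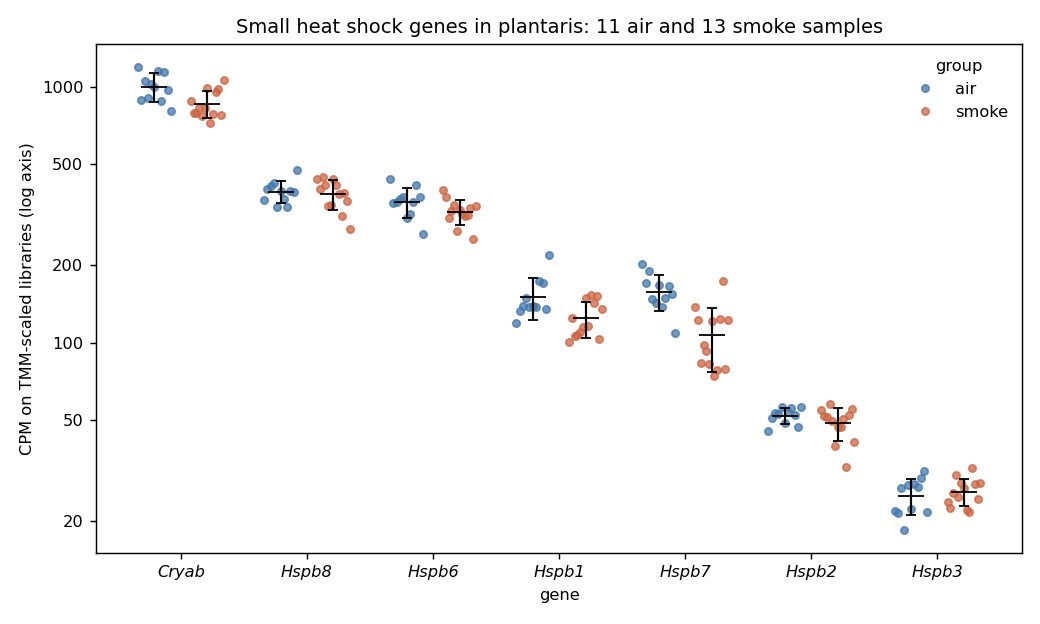
CPM (log axis) of the 7 small heat shock genes in each of 11 air samples and 13 smoke samples, with mean and SD as black bars. Hspb7 shows the widest gap, with means of 158 CPM (air) and 107 CPM (smoke), while the values of every gene overlap between groups.

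Under smoke, Hspb7 was the 1 member that passed the test, falling to 0.676 times its level in air. Of the 7 genes, 1 was called at an adjusted p under 0.05 (edgeR quasi-likelihood test, Benjamini-Hochberg over all 10159 genes), against 1.92% of all genes tested, 1.19% lower and 0.728% higher. The log2 change was negative for 6 of the 7, against 48.4% of all genes, and the median was −0.13 against 0.01 over all genes. The groups overlapped for all 7, as for all but 0.0295% of genes. At an adjusted p under 0.10, 3 of the 7 passed, Hspb7, Cryab and Hspb1, against 4.07% of all genes.

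Hspb7 lay at 109 CPM in the lowest, 155 in the median and 202 in the highest air sample. In smoke it lay at 73.9 in the lowest, 97.5 in the median and 174 in the highest sample. Of the smoke samples, 7 of 13 were below the lowest air sample and 12 of 13 below the air mean; smoke replicate 11 was the exception, and air replicate 11 was the lowest of its group. The log2 change was −0.57 (SE 0.113, edgeR adjusted p = 0.00477). It stayed between −0.64 and −0.53, and called, when each of the 24 samples was left out in turn (edgeR adjusted p from 0.000455 to 0.0143). The call did not hold with a blood score or a clock index in the fit, whose values stand with the cell markers. In whole muscle, fewer cells of a type and less RNA per cell cannot be told apart.

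Cryab was 805 CPM in the lowest, 998 in the median and 1191 in the highest air sample. In smoke these values were 718, 825 and 1059. Of the smoke samples 12 of 13 were below the air mean and 6 below the lowest air sample. The log2 change of −0.22 (SE 0.0671, 95% interval −0.36 to −0.09) did not pass over all genes (edgeR adjusted p = 0.0712). Without air replicate 11 it passed at −0.26 (edgeR adjusted p = 0.0247), and without smoke replicate 13 at −0.25 (edgeR adjusted p = 0.0277).

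Hspb1 was 120 CPM in the lowest, 139 in the median and 220 in the highest air sample. In smoke these values were 101, 116 and 154. Most smoke samples lay low, 7 of 13 below the lowest air sample, but 2 were above the air mean. The log2 change of −0.27 (SE 0.0869, 95% interval −0.45 to −0.10) did not pass (edgeR adjusted p = 0.0914), and was −0.21 without air replicate 11, the highest sample (edgeR adjusted p = 0.145).

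The other members gave smaller values, and none passed. Hspb6 ranged from 265 to 435 CPM in air (median 355) and from 255 to 393 CPM in smoke (median 327), a log2 change of −0.13 (95% interval −0.27 to 0.01, edgeR adjusted p = 0.360). Hspb2 ranged from 44.97 to 56.1 CPM in air (median 52.8) and from 32.6 to 57.7 CPM in smoke (median 50.3). Its log2 change was −0.10 (95% interval −0.25 to 0.05, edgeR adjusted p = 0.561). The groups overlapped for both genes, with 1 of 13 smoke samples below the air range for Hspb6 and 3 of 13 for Hspb2. Hspb2 spread more widely in smoke, with a coefficient of variation of 14.6% against 7.26% in air, and this difference in spread was not tested.

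Hspb8 ranged from 337 to 471 CPM in air (median 390) and from 278 to 444 CPM in smoke (median 385). Its log2 change was −0.03 (95% interval −0.17 to 0.11, edgeR adjusted p = 0.886). Hspb3 was the only member with a positive estimate, 0.04 (95% interval −0.14 to 0.22, edgeR adjusted p = 0.875), with 18.6 to 31.6 CPM in air (median 27.0) and 21.8 to 32.2 CPM in smoke (median 25.9). For both genes, as for every member other than Hspb7, the interval leaves out a fall as large as the estimate for Hspb7. The interval of Hspb7 itself, −0.80 to −0.34, overlaps those of Hspb1 and Cryab.

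Air replicate 11 stood apart within its group. It held the highest Hspb1 (220 CPM) and Hspb8 (471 CPM) and the lowest Cryab (805 CPM), Hspb6 (265 CPM) and Hspb7 (109 CPM) of the 11 air samples. Smoke replicate 13 held the highest Cryab (1059 CPM) and the lowest Hspb8 (278 CPM) of its group, and smoke replicate 10 the highest Hspb3 (32.2 CPM) and the lowest Hspb2 (32.6 CPM).

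**Figure D2:**
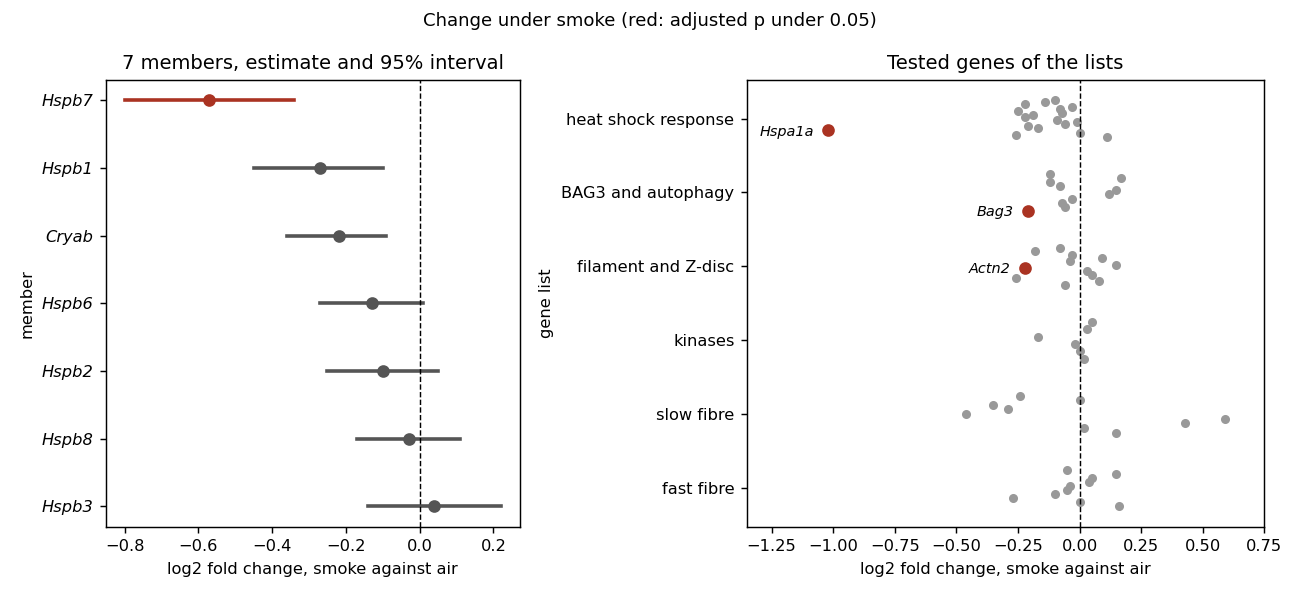
Left, log2 change of each member, smoke against air, with its 95% interval. Right, the log2 changes of the tested genes of 6 lists; red marks an adjusted p under 0.05. Hspb7 (−0.57) is the member whose point is red, and Hspb1 and Cryab have intervals below 0 without passing over all genes.

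Whether members changed by different amounts was tested on the ratio of 2 members within a sample, which does not depend on library scaling. Of 21 pairs, 7 passed (two-sided permutation test with 100000 resamples, Benjamini-Hochberg adjusted over the 21), and 5 of these held Hspb7. The 21 ratios are built from 7 genes in the same samples, so ratios that share a gene are not independent. The 5 with Hspb7 all carry its fall and are not 5 separate results. The log2 ratio of Hspb7 to Cryab was −2.66 ± 0.203 (SD) in air. Under smoke it was −3.03 ± 0.273 (SD), a change of −0.37 (SE 0.0973, permutation p = 0.00218, adjusted p = 0.0114), and 12 of 13 smoke samples lay under the mean of air. Hspb6 to Hspb7 rose by 0.47 (SE 0.0998, permutation p = 0.00034, adjusted p = 0.00357), and 12 of 13 smoke values lay above the mean of air. Hspb3 to Hspb7 rose by 0.65 (SE 0.141, permutation p = 0.00034, adjusted p = 0.00357), and 13 of 13 values lay above. Hspb7 to Hspb8 fell by 0.55 on the log2 scale (SE 0.155, permutation p = 0.00299, adjusted p = 0.0126), and 11 of 13 values lay below. Hspb2 to Hspb7 rose by 0.48 (SE 0.159, permutation p = 0.00906, adjusted p = 0.0317), and 11 of 13 values lay above. Against Hspb1 the difference missed the threshold: Hspb1 to Hspb7 was 0.32 higher (SE 0.168, permutation p = 0.0638, adjusted p = 0.149), and 0.43 higher without air replicate 11 (permutation adjusted p = 0.0135).

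Among pairs without Hspb7, Hspb3 to Cryab rose by 0.28 (SE 0.0823, permutation p = 0.00173, adjusted p = 0.0114), and 13 of 13 smoke values lay above the mean of air. Hspb1 to Hspb3 fell by 0.33 on the log2 scale (SE 0.127, permutation p = 0.0127, adjusted p = 0.0380), and 12 of 13 values lay below. It kept its call in 10 of the 24 tests that each left out 1 sample. Hspb2 to Hspb7 kept its call in 19 of these 24, losing it without air replicate 1 or 6 or smoke replicate 3, 4 or 12 (permutation adjusted p from 0.0513 to 0.0532). The other 5 ratios that passed kept theirs in all 24. The ratio of the partners Hspb2 and Hspb3 missed the threshold (−0.17, SE 0.122, permutation adjusted p = 0.335), as did that of Hspb1 to Cryab (−0.05, SE 0.127, permutation adjusted p = 0.744).

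**Figure D3:**
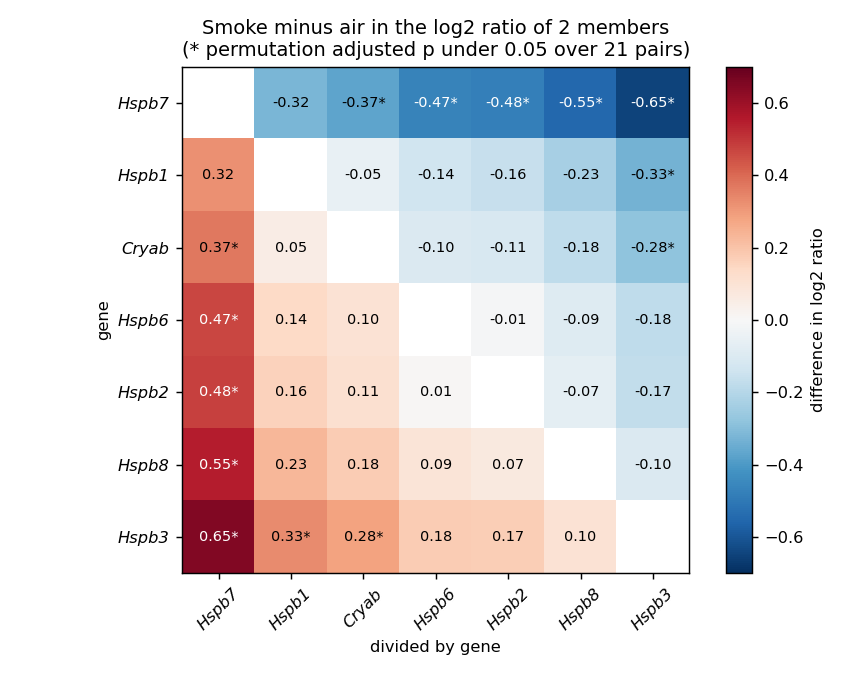
Smoke minus air in the log2 ratio of the row gene to the column gene, ordered by change; an asterisk marks a permutation adjusted p under 0.05 over 21 pairs. The Hspb7 row is negative throughout, from −0.32 against Hspb1 to −0.65 against Hspb3.

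Hspb2 and Cryab lie head to head on chromosome 9. In the GENCODE M21 annotation (GRCm38), Hspb2 (50751078 to 50752354, minus strand) and Cryab (50751325 to 50756636, plus strand) share 1030 bases, because 2 of 6 Cryab transcripts start within Hspb2. The 3′ end of Hspb2, where this kit reads, lies outside the Cryab model. Strand use in counting was not stated, so some reads of this stretch may be assigned to either gene. Hspb6 overlaps Lin37 at its 3′ end on the opposite strand, which leaves its counts uncertain. Hspb1, Hspb3, Hspb7 and Hspb8 overlap no other annotated gene; Hspb7 occupies 141420779 to 141425311 of chromosome 4 on the plus strand.

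Samples of 1 group were compared to see whether members varied together. Over 21 member pairs and 14 pairs of a member with a fibre or smooth muscle score in each group, 70 relations in all, none passed Benjamini-Hochberg adjustment over the 70 (smallest permutation adjusted p = 0.178 for Pearson's r and 0.219 for Spearman's rho). The largest r between members under smoke was that of Hspb7 with Cryab, r = 0.77 (permutation p = 0.00255) and rho = 0.70 (permutation p = 0.00975). Leaving out the 2 samples most distant from the median Hspb7 gave 0.78. In air the same pair gave r = 0.57 (permutation p = 0.0638) and rho = 0.37 (permutation p = 0.262), and leaving out 2 samples gave −0.01, so that it rested on those. Hspb6 with Hspb7 gave r = 0.71 in air (permutation p = 0.0167, rho = 0.34 with permutation p = 0.311), which fell to 0.07 without 2 samples. Hspb1 with Hspb7 gave r = −0.73 in air (permutation p = 0.0143, rho = −0.48 with permutation p = 0.138), and −0.33 without 2 samples. Under smoke Hspb6 with Hspb7 gave r = 0.62 (permutation p = 0.0212, rho = 0.66 with permutation p = 0.0164) and 0.52 without 2.

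The head-to-head neighbours Hspb2 and Cryab had negative estimates in both groups, r = −0.42 in air (permutation p = 0.203, rho = −0.32 with permutation p = 0.341) and r = −0.40 in smoke (permutation p = 0.181, rho = −0.27 with permutation p = 0.361), and −0.24 and −0.41 without 2 samples. Hspb1 with Cryab gave r = −0.58 in air (permutation p = 0.0589, rho = −0.45 with permutation p = 0.164) and 0.55 in smoke (permutation p = 0.0551, rho = 0.34 with permutation p = 0.256). Without 2 samples these were −0.02 and 0.67, so the air value rested on those samples, and the difference between groups was not tested. Median r over the 21 pairs was −0.05 in air and 0.16 in smoke.

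Against the slow fibre score, the mean log2 CPM of 9 slow fibre genes, Hspb7 gave r = 0.61 in air (permutation p = 0.0417, rho = 0.70 with permutation p = 0.0201) and 0.73 without 2 samples. Under smoke it gave r = 0.30 (permutation p = 0.325, rho = 0.37 with permutation p = 0.218) and 0.05 without 2. Hspb6, which smooth muscle also expresses, gave r = −0.67 with the smooth muscle score in air (permutation p = 0.0253, rho = −0.79 with permutation p = 0.00544) and 0.58 in smoke (permutation p = 0.0376, rho = 0.69 with permutation p = 0.0112). Without 2 samples these were −0.78 and 0.81, and the difference between groups was not tested. That score covers the 4 tested genes Acta2, Myh11, Mylk and Des, and Des is also a gene of the fibre itself.

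**Figure D4:**
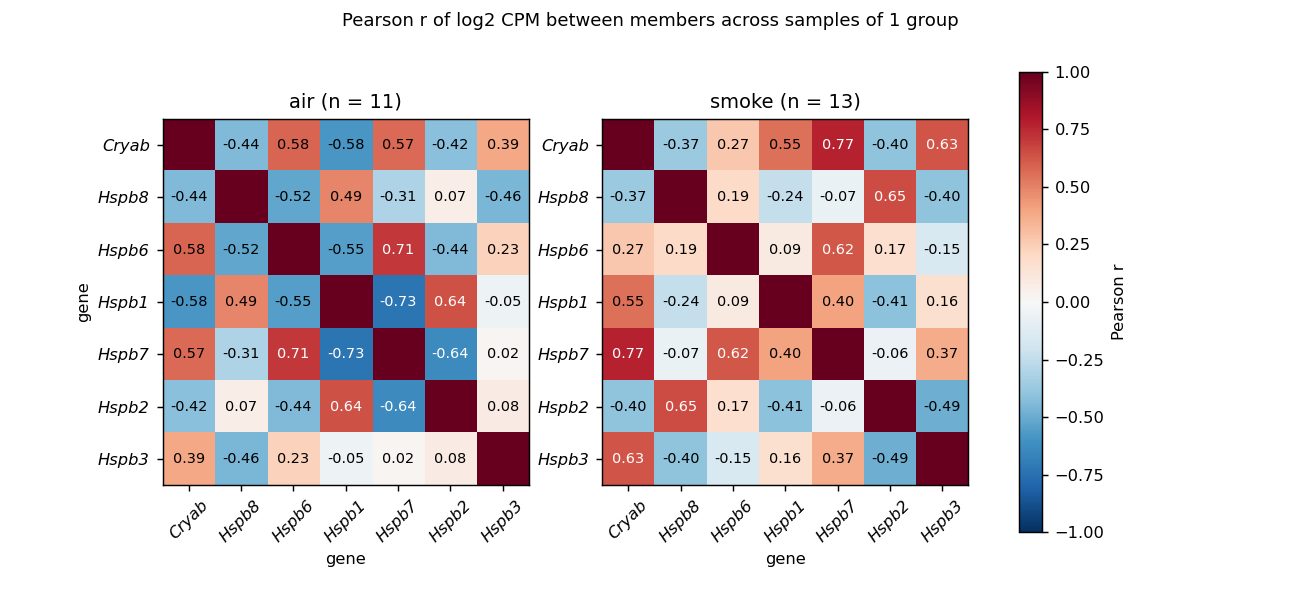
Pearson r of log2 CPM between members across the 11 air samples (left) and 13 smoke samples (right). Hspb7 with Cryab is 0.57 in air and 0.77 in smoke, while Hspb1 with Hspb7 is −0.73 in air and 0.40 in smoke; no value passed adjustment.

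The genes whose pattern was most like each member were found by Spearman's rho of log2 CPM over the 24 samples after removing each group's mean, among 10158 other genes. These rho values, all from 0.68 to 0.76, are the highest of many and describe these samples only. Ankrd2, a stretch-responsive ankyrin repeat protein, stood among the closest 3 for both Hspb7 (rho 0.76) and Cryab (rho 0.74), and had a log2 change of −0.35 that did not pass (edgeR adjusted p = 0.243). Hspb7 was also close to Fbh1 (0.76) and Tstd3 (0.72), and Cryab to Adprhl1 (0.71) and Acsl1 (0.70), the latter a fatty acid activating enzyme. Hspb6 was close to Cyp4b1 (0.76), Fhl1 (0.75) and Mlx (0.75), and Fhl1, a LIM protein of muscle, fell from 1694 ± 290 to 1315 ± 211 CPM (SD, edgeR adjusted p = 0.0142). Hspb8 was close to C2cd2 (0.74), Smox (0.73) and Metrn (0.71), and Smox, spermine oxidase, rose from 166 ± 46.9 to 259 ± 90.6 CPM (SD, edgeR adjusted p = 0.0259). The call of Fhl1 was lost with the blood score (−0.27, edgeR adjusted p = 0.222), the clock index (−0.18, edgeR adjusted p = 0.523) and the Schwann cell score (−0.36, edgeR adjusted p = 0.0831) as covariates. That of Smox was lost without air replicate 8 (0.59, edgeR adjusted p = 0.0517), with robust dispersion (0.65, edgeR adjusted p = 0.0893), the blood score (0.46, edgeR adjusted p = 0.325) and the clock index (0.34, edgeR adjusted p = 0.566). Hspb1 was close to Ecd, Bicc1 and Cnot3 (0.69 to 0.71), Hspb2 to Kcnq5, Taf8 and Pigm (0.68 to 0.75) and Hspb3 to Rrp15, Arel1 and 4632428C04Rik (0.70 to 0.74). Bicc1, Cnot3, Arel1, Mlx, Tstd3 and Metrn overlap another gene at their 3′ ends, so their counts are uncertain. Some neighbours had few counts per sample: Cyp4b1 (2 to 21), Mlx (6 to 25), Taf8 (6 to 31) and Fbh1 (7 to 26). Pigm (8 to 28), Rrp15 (9 to 32) and 4632428C04Rik (11 to 47) were also low, so these rho values rest on small counts.

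Among the other genes of the heat shock response 1 was called, and it fell. Of 20 listed HSF factors and targets 18 were tested, 17 had a negative log2 change and their median was −0.12. Over all genes 1.92% were called, 48.4% were negative and the median was 0.01. Hspa1a, the inducible HSP70, was the called gene. It was 7.30 CPM in the lowest, 14.8 in the median and 29.6 in the highest air sample, and 3.30, 6.95 and 19.4 CPM in smoke, so the groups overlapped in a low range and 12 of 13 smoke samples lay under the mean of air. Its log2 change was −1.02 (SE 0.234, edgeR adjusted p = 0.0142). Its call was lost with robust dispersion, the clock index (−0.86, edgeR adjusted p = 0.263) and the Schwann cell score. Its near-identical copy Hspa1b, too low to test, had 150 counts over the 11 air and 89 over the 13 smoke samples, and the split of reads between them is uncertain. Hsf1 itself averaged 5.21 ± 1.06 CPM in air against 5.67 ± 1.77 CPM in smoke (SD), and did not pass (log2 change 0.11, edgeR adjusted p = 0.821). Hsf2, the other HSF factor tested, averaged 41.7 ± 4.81 CPM in air against 34.7 ± 4.23 CPM in smoke (SD), with 12 of 13 smoke samples under the mean of air, and missed the threshold (log2 change −0.26, edgeR adjusted p = 0.0615).

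Of 10 genes of the BAG3 complex and chaperone-assisted autophagy, all tested, 1 was called, against 1.92% of all genes, and the median log2 change was −0.07, against 0.01. Bag3, the co-chaperone that binds Hspb8, fell from 321 ± 23.7 to 278 ± 24.2 CPM (SD), a log2 change of −0.21 (SE 0.0524, edgeR adjusted p = 0.0273). In 12 of 13 smoke samples Bag3 lay under the mean of air. It missed the threshold without air replicate 3 or smoke replicate 6 (−0.20 for each, edgeR adjusted p = 0.0520 and 0.0511). It also missed it with no expression filter (−0.22, edgeR adjusted p = 0.0591) and with the blood score (−0.22, edgeR adjusted p = 0.0927). With the Schwann cell score Bag3 was −0.17 (edgeR adjusted p = 0.204) and with the clock index −0.12 (edgeR adjusted p = 0.507). Of 13 listed filament and Z-disc clients, 12 were tested and 1 was called, with a median of −0.04, against the same 1.92% and 0.01 over all genes. Actn2, an alpha-actinin that crosslinks actin at the Z-disc, fell from 435 ± 28.8 to 373 ± 47.8 CPM (SD), a log2 change of −0.22 (SE 0.0603, edgeR adjusted p = 0.0407). This call held in 8 of the 24 fits that each left out 1 sample (adjusted p from 0.0155 to 0.0745). It was lost with no expression filter (−0.23, edgeR adjusted p = 0.0502), the slow fibre score (−0.22, 0.0501), the blood score and the Schwann cell score (−0.22 and 0.162 for each). With the clock index Actn2 was −0.13 (edgeR adjusted p = 0.532).

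Of 6 kinases that phosphorylate small heat shock proteins or act upstream of them, none was called, against 1.92% of all genes tested. Mapkapk2, the main kinase of Hspb1, had a log2 change of 0.02 (edgeR adjusted p = 0.934) and Prkaca, a catalytic subunit of protein kinase A, one of 0.03 (edgeR adjusted p = 0.850). Neither list of fibre type genes held a called gene, 0 of 9 slow and 0 of 10 fast genes tested, against 1.92% of all genes. The 9 slow fibre genes had a median log2 change of 0.00, with 5 negative and 4 positive. Myl3 was at −0.29 (edgeR adjusted p = 0.150) and Myl2 at −0.46 (edgeR adjusted p = 0.0784). Tnnc1 and Tnni1 went the other way, at 0.59 and 0.43 (edgeR adjusted p = 0.477 and 0.568). Both were low, averaging 4.27 and 3.94 CPM in air. Myl2 passed without air replicate 10 or 11 or smoke replicate 11 (edgeR adjusted p from 0.0168 to 0.0493), with no expression filter (−0.47, edgeR adjusted p = 0.0132) and with 1 surrogate variable (−0.46, edgeR adjusted p = 0.0437). The 10 fast fibre genes had a median of −0.02, with 5 negative and 5 positive. Tnnc2 was at −0.04 (edgeR adjusted p = 0.761) and Myh4 at 0.16 (edgeR adjusted p = 0.228). Myh2 was at −0.27 and missed the threshold (edgeR adjusted p = 0.0627), with 11 of 13 smoke samples under the mean of air. Without air replicate 11 Myh4 passed at 0.21 (edgeR adjusted p = 0.0312). Tnnc2, Myl2, Tnnc1 and Myh2 overlap other genes on the opposite strand at their 3′ ends. Other alpha-crystallin genes were near absent, with 0 counts of Cryaa, the lens crystallin, in all samples and at most 4 counts of Hspb9 and 1 of Odf1, both testis genes, in any sample.

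Markers of other cells moved with exposure. Of 5 blood markers 3 were called lower, against 1.19% of all genes, and their summed level ran from 486 to 1444 CPM in air and from 369 to 883 CPM in smoke. Of 4 Schwann cell markers 3 were called higher, against 0.728% of all genes, summing to between 109 and 200.5 CPM in air and between 157 and 818 CPM in smoke. Endothelial, fibroblast, macrophage, adipocyte, satellite cell and smooth muscle lists held 0 called genes of 5, 4, 2, 3, 1 and 4 tested, where 1.92% of all genes were called in either direction.

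With a blood score as a covariate, Hspb7 had a log2 change of −0.54 and lost its call (edgeR adjusted p = 0.0615), leaving 0 of the 7 called against 0.551% of genes. A clock index, the mean log2 CPM of Dbp, Per3, Nr1d2 and Tef minus that of Nfil3, Arntl, Npas2 and Clock (7 of these 8 genes tested), ran from 1.53 to 2.80 in air and from 2.17 to 3.85 in smoke. With it as a covariate Hspb7 went to −0.29 and lost its call (edgeR adjusted p = 0.416), again leaving 0 of 7 against 0.315% of genes. With the Schwann cell score, added after the data were seen, Hspb7 was −0.60 (edgeR adjusted p = 0.0212). With the slow fibre score it was −0.54 (edgeR adjusted p = 0.00491), and over all 17 alternatives the adjusted p ranged from 3.70e-05 to 0.416. The part of blood, nerve and clock differences in the result for Hspb7 was not tested beyond these values. The scores correlated with exposure at r = −0.56 for blood, 0.56 for Schwann cell markers and 0.76 for the clock index.

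Some settings called more members. DESeq2 called Hspb7 and Cryab, 2 of 7 against 3.63% of the genes it tested, with Cryab at −0.23 (DESeq2 adjusted p = 0.0406). Over its 17 alternatives the adjusted p of Cryab ranged from 0.0342 to 0.428. With 1 surrogate variable Hspb7, Cryab and Hspb1 were called, 3 of 7 against 4.37% of genes (edgeR adjusted p = 0.0342 for Cryab and 0.0473 for Hspb1). With the share of Gm42418, an abundant gene that overlaps ribosomal RNA sequence, as a covariate, Hspb7 and Hspb1 were called, 2 of 7 against 1.58% of genes (Hspb1 −0.33, edgeR adjusted p = 0.0448). That of Hspb1 ranged from 0.0448 to 0.270 over 17 alternatives.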

How the data were processed

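The deposited file held raw read counts per Ensembl gene for 24 samples, 1 column each. Per the submitters' processing notes, STAR, DESeq2 and the build mm9 were used, with no versions given. The counting tool, annotation, strand setting and any removal of PCR copies are not given in the sources used here. Symbols came from GENCODE M21 (GRCm38), which held 47224 of 47643 identifiers, and coordinates and gene overlaps printed are of GRCm38. The build used for counting is uncertain: the notes name mm9, while nearly all identifiers in the file are in this GRCm38 annotation, so overlaps in the annotation used for counting may differ.

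Genes were kept by filterByExpr (minimum count 10), scaled by TMM and tested with edgeR 4.0.16 (glmQLFit and glmQLFTest, R 4.3.3) on all 24 samples without covariates. SE is the log2 fold change divided by the root of F. Benjamini-Hochberg adjustment ran over all tested genes. Ratios and correlations used log2 CPM with a prior count of 2 and 100000 permutations. The test scripts were tested on simulated data. Within groups, 133 sample pairs were compared, and chi-square per gene was 2.33 or more, so none was merged.

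Named were all members, the called genes of each gene list or otherwise its 2 most abundant tested genes, and the 3 genes most like each member. The members and lists were chosen with earlier results of these data known. Hsf1, Hsf2, Hspa1b, Myh2, Tnnc1, Tnni1, the called Schwann and blood lists and samples singled out were named after their values were seen. Alternatives were other scalings, filters and tests (DESeq2 1.42.0, limma 3.58.1, sva 3.50.0), covariates, the replicate block and leaving out each sample.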

Additional observations from a re-analysis of the deposited data

How the results depend on the processing

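Against 1 member called, DESeq2 gave 2, an adjusted p under 0.10 gave 3, 1 surrogate variable 3, the Gm42418 share 2, the blood score 0 and the clock index 0, and leaving out 1 sample gave 1 to 2. Over all genes, against 195 called, these gave 330, 413, 444, 161, 56 and 32 in the same order, the Schwann cell score (added after seeing the data) 88 and the permutation test on log2 CPM 115. Leaving out 1 sample gave 141 to 254. The causes were not tested.

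Hspb7 kept its direction in all 17 alternatives (−0.60 to −0.29) and lost its call in 2, the blood score (−0.54) and the clock index (−0.29). Hspb1 was called at −0.27 at an adjusted p under 0.10, at −0.26 with the surrogate variable and at −0.33 with the Gm42418 share. Cryab was called at −0.22 at an adjusted p under 0.10, at −0.22 with the surrogate variable and at −0.23 in DESeq2, and without 1 sample ranged from −0.26 to −0.20. Hspb8 turned to 0.04 with the Schwann cell score and 0.01 with the replicate block.

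Replicate numbers occur in both groups with no statement that they pair animals. Same-numbered pairs correlated in their deviations at a mean r of −0.00592 (11 pairs) against 0.00114 (132 other pairs), and 2 of 11 air samples correlated best with their own number. With the replicate block, on samples whose numbers both groups share, Hspb7 was −0.58 (edgeR adjusted p = 0.0183), 1 member was called and 138 genes in all. Bag3 (−0.20, edgeR adjusted p = 0.0653) and Actn2 (−0.24, edgeR adjusted p = 0.0638) were not called under it.

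Prior counts of 0.5 and 5 each gave 7 of 21 ratios called, and leaving out 1 sample gave 5 to 7. Leaving out 1 sample, Hspb2 to Hspb6 ranged from −0.04 to 0.07, Hspb1 to Cryab from −0.10 to 0.04, Mapkapk2 from −0.01 to 0.03 and Tnnc2 from −0.06 to 0.0017. Mapkapk2 was −0.04 with the blood score and −0.02 with the clock index, which also turned Prkaca to −0.05 and Myh4 to −0.10. No relation within groups passed with a prior count of 0.5 or RLE scaling (0 of 70). Hspa1a lost its call with robust dispersion (−1.02, edgeR adjusted p = 0.0559), the clock index (−0.86, 0.263) and the Schwann cell score (−1.07, 0.0599).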
